A study of Rattus norvegicus with 16 samples.

Results

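The smooth muscle contractile genes are Acta2, Actg2, Tagln, Cnn1, Lmod1, Myh11, Mylk, Des, Smtn and Synpo2, 10 of the 22663 genes in the expression table. They were taken by gene symbol, and each symbol matched 1 rat gene. Their RNA was measured in ovaries of 8 rats, 4 in a group labelled CON and 4 labelled VCD. VCD stands for 4-vinylcyclohexene diepoxide, a compound known for its toxicity to primordial and primary follicles. The labels name no strain, age, dose, route or duration, and do not say what the CON rats received. Each ovary sample was split into an input library of fragmented poly(A) RNA and an immunoprecipitated library for m6A, which is N6-methyladenosine, a modified base of mRNA. The organism label is rat, whereas the study's own text speaks of mice.

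Smooth muscle cells contract when calcium and calmodulin activate myosin light chain kinase, which phosphorylates the light chain of smooth muscle myosin so that it pulls on actin filaments. Thin filaments carry regulatory proteins that tune this cycle, and the filaments are anchored to dense bodies linked by desmin. In the ovary such cells are found in the walls of blood vessels, in the theca externa around follicles and in the stroma and hilum. Many of these genes are known targets of serum response factor (SRF) and its coactivator myocardin, which act through a DNA element called the CArG box.

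Promoters were examined because SRF sites lie close to the start of several of these genes. RefSeq (build GRCr8) gave a window from 250 bases before to 50 bases after the start for 7 of the 10 genes, namely Acta2, Actg2, Cnn1, Des, Mylk, Smtn and Synpo2. The windows of Acta2, with matches to the near form of the CArG box, and of Cnn1 and Des, without a match, are shown 5′ to 3′ with the matches in capitals. Acta2 lies at chr1:241172454-241172753 on the minus strand, Cnn1 at chr8:28908187-28908486 and Des at chr9:84299376-84299675, both on the plus strand.
Acta2: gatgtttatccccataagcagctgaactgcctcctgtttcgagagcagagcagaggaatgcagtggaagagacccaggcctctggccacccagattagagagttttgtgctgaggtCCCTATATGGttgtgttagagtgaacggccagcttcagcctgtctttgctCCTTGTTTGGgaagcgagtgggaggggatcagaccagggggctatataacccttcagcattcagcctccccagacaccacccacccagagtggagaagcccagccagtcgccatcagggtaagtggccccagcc
Cnn1: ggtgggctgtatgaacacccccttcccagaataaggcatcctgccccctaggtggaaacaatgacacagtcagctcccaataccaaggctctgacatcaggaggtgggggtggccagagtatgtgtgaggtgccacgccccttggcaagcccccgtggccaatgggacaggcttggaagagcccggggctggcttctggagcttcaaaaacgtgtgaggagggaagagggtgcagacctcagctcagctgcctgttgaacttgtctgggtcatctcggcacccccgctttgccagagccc
Des: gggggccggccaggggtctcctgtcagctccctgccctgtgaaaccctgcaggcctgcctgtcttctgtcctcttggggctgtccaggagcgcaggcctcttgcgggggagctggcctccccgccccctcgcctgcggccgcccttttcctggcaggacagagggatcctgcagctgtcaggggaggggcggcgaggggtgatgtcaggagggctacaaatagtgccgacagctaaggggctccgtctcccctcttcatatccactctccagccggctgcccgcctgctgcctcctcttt

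The Acta2 window held 2 near CArG boxes, each with 1 base of the A/T core changed to G or C. CCCTATATGG began 134 bases before the start and CCTTGTTTGG began 84 bases before it. The pattern reads the same on both strands, so 1 search covered both. Of the 33469 rat promoter windows of this length, 8.10% held at least 1 near CArG box, 0.532% held at least 2, and 1.64% held a CArG box with an unchanged core. Among the 7 windows examined here, only 1, that of Acta2, held a near CArG box. None of the 7 windows held an unchanged CArG box, which says only that it is not within these 300-base windows.

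Values are FPKM (fragments per kilobase of transcript, scaled to library size), which correct for gene length and depth. Their sum lay between 403809 and 421628 per input library, and the read depth behind them is unknown. Genes typed as ribosomal RNA summed to between 8.17 and 25.0 FPKM in CON, with CON 3 highest, and to between 28.6 and 56.9 FPKM in VCD, with VCD 2 and VCD 4 highest. Genes whose mean reached 0.5 FPKM, 14978 in all, were tested with limma on log2(FPKM + 1), and all 10 smooth muscle genes were among them.

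All 10 genes were clearly present in every library, and their order of level was nearly the same throughout. Over the 8 libraries Tagln averaged 282 FPKM, Acta2 194 and Myh11 65.8, and these 3 kept that order in 8 of 8 libraries. Actg2, at 33.2 FPKM, and Mylk, at 31.3, could not be ordered, since Actg2 was the higher in 4 of 8 libraries. Smtn, at 27.4 FPKM, was above Des, at 25.8, in 6 of 8 libraries. Cnn1, at 18.8 FPKM, Lmod1, at 10.2, and Synpo2, at 5.52, followed in that order in 8 of 8 libraries.

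None of the 10 genes changed between VCD and CON at a limma adjusted p under 0.05, a rule that 0.447% of all tested genes met. None of the 10 had an unadjusted limma p under 0.05 either, where 4.12% of tested genes passed that p and were higher in VCD. That background is 67 genes, 16 higher and 51 lower in VCD, and 31 genes with the replicate number as a block. With each library scaled to a common median it was 59 genes, 21 higher and 38 lower. Mean FPKM was higher in VCD for 10 of the 10, and their median log2 change was 0.24, against -0.063 over all genes tested. A log2 change above 0 was found in 36.5% of all tested genes. Without VCD 4 the median of the 10 was 0.09, and without both CON 2 and VCD 4 it was 0.0078, with 5 of 10 above 0. In no gene did all 4 VCD libraries lie above all 4 CON libraries, which happened in 2.27% of tested genes.

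**Figure D1:**
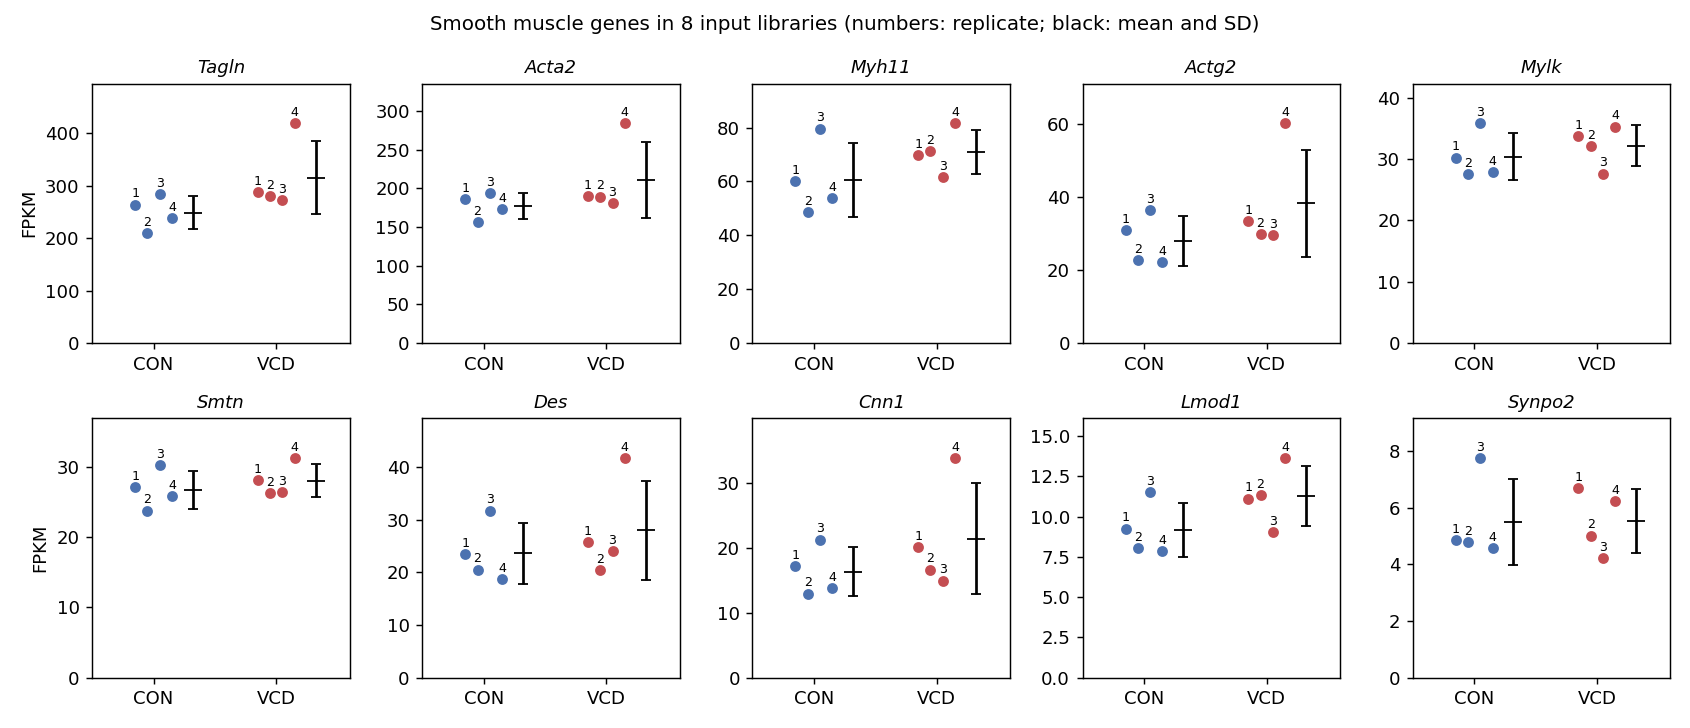
FPKM of the 10 genes in each input library (y axis, linear, from 0), CON in blue and VCD in red, with the replicate number above each point and the group mean and SD (n = 4) in black. VCD 4 is the highest VCD library for 9 of the 10 genes, CON 3 is the highest CON library for all 10, and the groups overlap in every panel.

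Among the thin filament genes, Acta2 encodes alpha smooth muscle actin (ENSRNOG00000058039, chromosome 1, 252537615 to 252550394, minus strand). It measured 186, 156, 194 and 173 FPKM in CON 1 to 4 and 190, 189, 181 and 284 FPKM in VCD 1 to 4. VCD 4 stood apart, and VCD 1, 2 and 3 lay within the CON range. Acta2 averaged 177 ± 16.6 FPKM in CON and 211 ± 49.0 in VCD (SD, n = 4 each). This is a log2 change of 0.23 ± 0.15 (SE) with a limma adjusted p of 0.433. Between VCD 1 to 3 and the CON group the ratio of means was 1.05.

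Tagln encodes transgelin, also called SM22 alpha, an actin-binding protein abundant in smooth muscle (ENSRNOG00000017628, chromosome 8, 50222896 to 50231357, minus strand). Its values were 264, 209, 283 and 239 FPKM in CON 1 to 4 and 288, 280, 273 and 419 FPKM in VCD 1 to 4. VCD 1 and VCD 4 exceeded the highest CON library, CON 3, and 3 CON libraries lay below the lowest VCD library. Tagln had the smallest p of the 10, with 249 ± 32.2 FPKM in CON and 315 ± 69.8 in VCD (SD, n = 4 each). Its log2 change was 0.33 ± 0.15 (SE) with a limma adjusted p of 0.295. The 95% interval of its log2 change ran from -0.02 to 0.67 and included 0. Without VCD 4 the change was 0.18, and without both CON 2 and VCD 4 it was 0.10.

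Actg2 encodes gamma smooth muscle actin, the form typical of visceral muscle (ENSRNOG00000029401, chromosome 4, 115215060 to 115239723, minus strand). It measured 31.0, 22.8, 36.3 and 22.2 FPKM in CON 1 to 4 and 33.4, 29.9, 29.5 and 60.3 FPKM in VCD 1 to 4. Only VCD 4 exceeded CON 3. Actg2 had the largest log2 change of the 10, 0.40 ± 0.24 SE, with a 95% interval from -0.15 to 0.94 (limma adjusted p = 0.404), and 0.16 without VCD 4. Its FPKM were between 12.8% (CON 4) and 18.7% (CON 3) of those of Acta2 in CON, and between 15.8% (VCD 2) and 21.2% (VCD 4) in VCD. The coding sequences of these actins are nearly alike, so reads common to them may have been counted for either gene.

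Cnn1 encodes calponin 1, which binds actin and restrains myosin activity (ENSRNOG00000027736, chromosome 8, 23113048 to 23121761, plus strand). It measured 17.1, 12.9, 21.2 and 13.8 FPKM in CON 1 to 4 and 20.1, 16.6, 14.9 and 33.8 FPKM in VCD 1 to 4. VCD 1, 2 and 3 were inside the CON range and VCD 4 was above it (log2 change 0.33 ± 0.24 SE, limma adjusted p = 0.499). Without VCD 4 the change was 0.09. Lmod1 encodes leiomodin 1, which starts new actin filaments in smooth muscle (ENSRNOG00000051548, chromosome 13, 52147555 to 52190228, plus strand). Its values were 9.27, 8.05, 11.6 and 7.87 FPKM in CON 1 to 4 and 11.1, 11.4, 9.03 and 13.7 FPKM in VCD 1 to 4. Here 2 CON libraries lay below all VCD libraries and VCD 4 alone lay above all CON libraries (log2 change 0.27 ± 0.14 SE, limma adjusted p = 0.341), and without VCD 4 the change was 0.18.

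Myh11, the smooth muscle myosin heavy chain and the most specific marker of the lineage among the 10, is the motor (ENSRNOG00000057880, chromosome 10, 764421 to 859184, plus strand). It measured 60.2, 48.5, 79.7 and 53.8 FPKM in CON 1 to 4 and 69.8, 71.2, 61.7 and 81.7 FPKM in VCD 1 to 4. CON 3 and VCD 4 were nearly level, and the other 3 CON libraries were below all VCD libraries. Myh11 averaged 60.5 ± 13.6 FPKM in CON and 71.1 ± 8.19 in VCD (SD, n = 4 each), giving a log2 change of 0.25 ± 0.15 (SE) and a limma adjusted p of 0.405. Mylk encodes the myosin light chain kinase that switches the motor on (ENSRNOG00000002215, chromosome 11, 69013050 to 69223158, minus strand). It measured 30.2, 27.5, 35.8 and 27.8 FPKM in CON 1 to 4 and 33.7, 32.1, 27.6 and 35.3 FPKM in VCD 1 to 4. No VCD library exceeded CON 3 (log2 change 0.08 ± 0.11 SE, limma adjusted p = 0.711). Mylk stood at 50.9% ± 4.84 of Myh11 in CON and 45.3% ± 2.13 in VCD (SD, n = 4 each), ranges that overlapped.

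Des encodes desmin, the intermediate filament protein of muscle (ENSRNOG00000019810, chromosome 9, 82556573 to 82564294, plus strand). It measured 23.5, 20.5, 31.8 and 18.7 FPKM in CON 1 to 4 and 25.8, 20.4, 24.1 and 41.8 FPKM in VCD 1 to 4. VCD 1, 2 and 3 averaged 23.4 FPKM against 23.6 FPKM in CON, and VCD 4 was above all other libraries (log2 change 0.21 ± 0.22 SE, limma adjusted p = 0.640; 0.01 without VCD 4). Smtn encodes smoothelin, a protein of contractile smooth muscle that binds actin fibres (ENSRNOG00000019451, chromosome 14, 83755142 to 83776863, minus strand). It varied least, from 23.8 to 30.2 FPKM in CON and from 26.3 to 31.3 FPKM in VCD (log2 change 0.07 ± 0.09 SE, 95% interval -0.14 to 0.27, limma adjusted p = 0.730). Its coefficient of variation over the 8 libraries was 8.89%, against 36.1% for Actg2.

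Synpo2 encodes synaptopodin 2, or myopodin, which bundles actin at Z-discs and dense bodies (ENSRNOG00000014867, chromosome 2, 227255902 to 227411964, minus strand). It measured 4.86, 4.80, 7.76 and 4.58 FPKM in CON 1 to 4 and 6.70, 5.02, 4.23 and 6.23 FPKM in VCD 1 to 4. CON 3 was the highest library of all and VCD 3 the lowest. The log2 change was 0.02 ± 0.17 SE, with a 95% interval from -0.37 to 0.41 (limma adjusted p = 0.966), and it was below 0 when CON 1, CON 2, CON 4, VCD 1 or VCD 4 was left out.

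**Figure D2:**
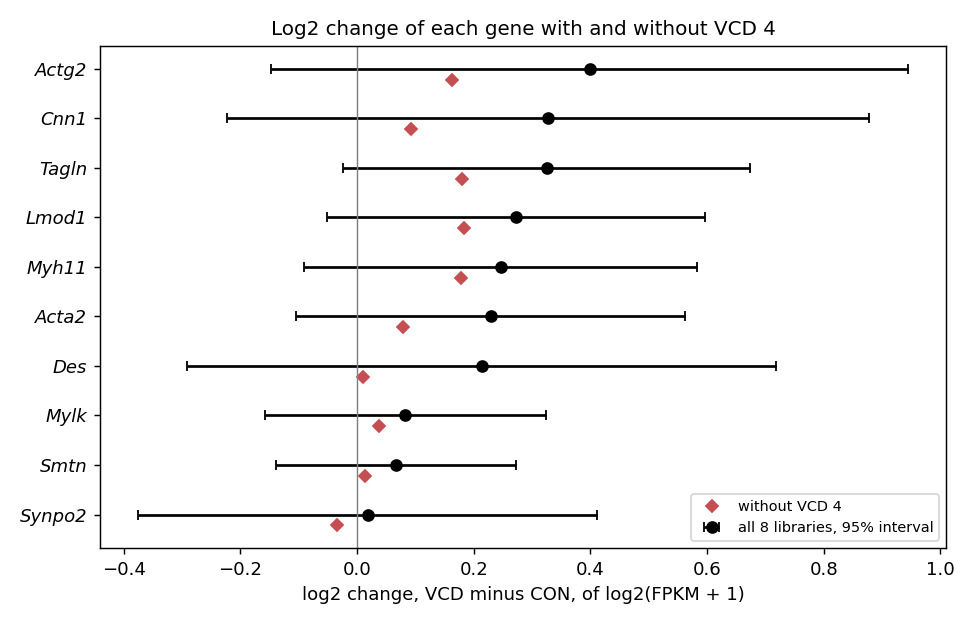
Log2 change of each gene (x axis, VCD minus CON, on log2(FPKM + 1)) with its 95% interval from limma in black, and the same change without VCD 4 as red diamonds. Every interval includes 0, and the changes without VCD 4 lie between -0.03 (Synpo2) and 0.18 (Lmod1).

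The authors' deposited table, whose test is not named, gave 5 of the 10 genes a p-value under 0.05, all higher in VCD. That rule was met by 7.04% of the genes in the authors' deposited table. Those 5 were Tagln (p = 0.00637), Lmod1 (p = 0.0118), Actg2 (p = 0.0275), Acta2 (p = 0.0294) and Myh11 (p = 0.0302) in the authors' deposited table. After adjustment, q in the authors' deposited table was 0.0974 for Tagln and between 0.142 and 0.912 for the other 9. A q-value under 0.05 was reached by none of the 10 and by 4.58% of all genes in the authors' deposited table.

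The 10 genes varied together over the 8 libraries. CON 3 was the highest CON library for 10 of 10 genes, where it was the highest for 38.0% of all tested genes. VCD 4 was the highest VCD library for 9 of 10, against 24.3% of all tested genes, and the 10th was Synpo2, with VCD 1 highest. Both held for 9 of the 10 genes, against 6.93% of all tested genes. Related lists, described below, shared this in part. CON 3 was highest for 14 of 18 contraction signalling genes, 14 of 25 other contractile genes and 8 of 14 SRF and myocardin regulators. VCD 4 was highest for 7, 12 and 3 of them, and both held for 5, 8 and 2. Pearson's r between pairs of the 10 genes over the 8 libraries ranged from 0.45 to 0.98, with a median of 0.87 over 45 pairs. These r values were not centred by group, so they also hold the difference between the groups. They share the libraries and their scaling, and they describe these 8 libraries only.

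The genes did not move by the same factor in the high libraries. The ratio of VCD 4 to the mean of VCD 1 to 3 was 1.96 for Cnn1, 1.95 for Actg2, 1.78 for Des, 1.52 for Acta2 and 1.50 for Tagln. For Lmod1 the factor was 1.30, for Myh11 1.21, for Synpo2 1.17, for Smtn 1.16 and for Mylk 1.13. In CON 3 the order was another one. The ratio of CON 3 to the mean of the other CON libraries was 1.64 for Synpo2, 1.52 for Des, 1.47 for Myh11 and 1.45 for Cnn1, but 1.19 for Tagln and 1.13 for Acta2. Des stood at 51.2% of Myh11 in VCD 4, and between 28.6% and 42.3% in the other 7 libraries.

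**Figure D3:**
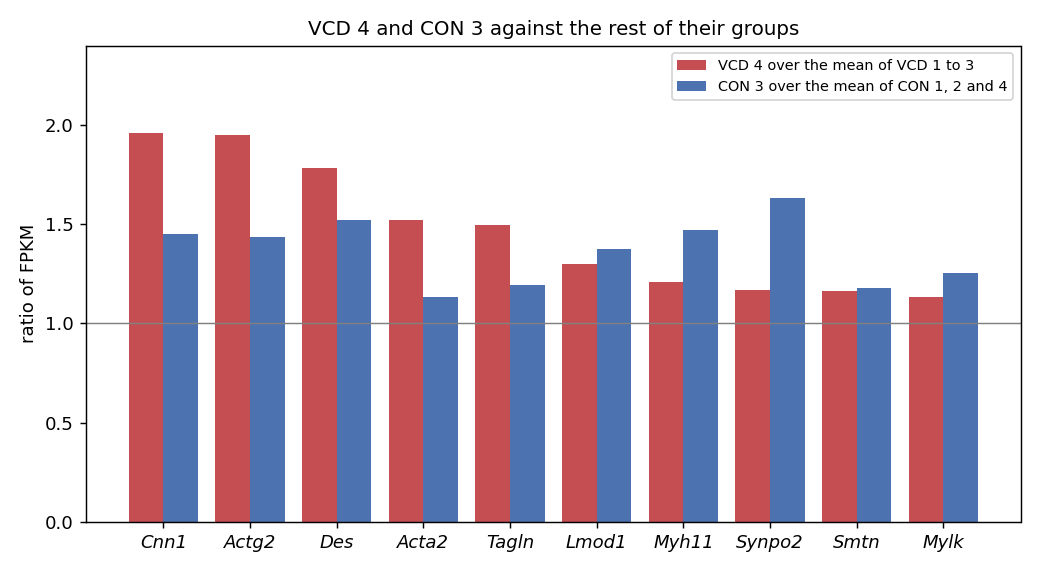
Ratio of FPKM (y axis, linear, from 0) of VCD 4 to the mean of VCD 1 to 3 in red and of CON 3 to the mean of CON 1, 2 and 4 in blue, for each gene. The red bars run from 1.96 (Cnn1) to 1.13 (Mylk) and the blue bars from 1.64 (Synpo2) to 1.13 (Acta2).

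The labels carry a batch number that equals the replicate number, so each number holds 1 CON and 1 VCD rat. For number 1 the log2 ratio of VCD to CON FPKM lay between 0.03 (Acta2) and 0.46 (Synpo2), and for number 2 between -0.01 (Des) and 0.55 (Myh11). For number 3 it was below 0 in 10 of 10 genes, from -0.88 (Synpo2) to -0.05 (Tagln). For number 4 it was above 0 in 10 of 10, from 0.28 (Smtn) to 1.44 (Actg2). The direction therefore did not hold for number 3, which sets VCD 3 against CON 3, the highest CON library for 10 of 10 genes. After subtraction of group means, libraries sharing a number had correlations between -0.09 and 0.0068. These ratios are therefore not known to be paired contrasts. With the number as a block none of the 10 genes was called, the smallest limma adjusted p being 0.350 (Tagln).

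The other genes of the contractile apparatus were a list of 25 light chains, tropomyosins, actin crosslinkers and attachment proteins, all tested by limma. None was called, and none had an unadjusted limma p under 0.05. Of these 25, 12 were higher and 13 lower in VCD, with a median log2 change of -0.0011. Over all tested genes 36.5% were higher in VCD and the median was -0.063. The smallest limma adjusted p values belonged to Svil, the membrane-linked protein supervillin (0.312), Dmd, dystrophin (0.317), and Myl6, an essential light chain of myosin (0.404). Myl6 measured 386 ± 19.7 FPKM in CON and 428 ± 37.1 in VCD, with VCD 4 highest at 482 (SD, n = 4 each). Summed over the list, VCD 4 stood 1.17 times above the CON mean, against 1.61 times for the 10 smooth muscle genes.

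Genes that signal to the contractile apparatus were tested in 18 of 23 cases, and none was called by limma. Of these 9 were higher and 9 lower, with a median log2 change of -0.02, where 36.5% of all tested genes were higher. At an unadjusted limma p under 0.05 there was 1 higher and 3 lower. At that p 4.12% of all tested genes were higher and 14.6% lower. Rock1, a kinase downstream of RhoA that inhibits myosin phosphatase, measured 7.69, 7.04, 8.67 and 6.24 FPKM in CON 1 to 4 and 5.24, 5.42, 5.14 and 3.83 FPKM in VCD 1 to 4. Every VCD library was below every CON library for Rock1, an arrangement seen in 9.58% of all tested genes (log2 change -0.51 ± 0.12 SE, limma adjusted p = 0.0988). Its q in the authors' deposited table was 0.0146, where 4.58% of all genes had a q under 0.05. Ppp1r12a, the targeting subunit of that phosphatase, measured 15.6 ± 1.68 FPKM in CON and 12.1 ± 2.01 in VCD (SD, n = 4 each), with a limma adjusted p of 0.189. Rgs2, which dampens signalling by Gq-coupled receptors, measured 34.1 ± 9.23 FPKM in CON and 79.2 ± 45.8 in VCD (limma adjusted p = 0.252), with VCD 1 at 106 and VCD 4 at 128 FPKM.

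Kcnma1, the pore of the large-conductance potassium channel that relaxes smooth muscle, was under the filter and is named after its values were seen. It measured 0.631, 0.706, 1.20 and 0.547 FPKM in CON 1 to 4 and 0.217, 0.0689, 0.135 and 0.130 FPKM in VCD 1 to 4. Every VCD library lay below every CON library, an arrangement seen in 9.58% of all tested genes, which did not include Kcnma1. In the authors' deposited table Kcnma1 had a log2 change of -2.48 and a q of 6.75e-08. A q under 0.05 was reached by 4.58% of all genes there. Which cells of the ovary carried its RNA was not tested. With no filter on low values its limma adjusted p was 0.0754. Kcnmb1, its smooth muscle beta subunit, measured between 1.05 and 1.82 FPKM in CON and between 1.45 and 2.09 in VCD.

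Regulators of the SRF and myocardin programme were tested in 14 of 16 cases, and none was called by limma. Of these 11 were higher and 3 lower, with a median log2 change of 0.08. Over all tested genes 36.5% were higher in VCD and the median was -0.063. Only Tead1 had an unadjusted limma p under 0.05. It was lower in VCD, as were 14.6% of all tested genes at that p. Myocd, myocardin itself, measured 2.78, 2.18, 1.74 and 1.36 FPKM in CON 1 to 4 and 3.06, 2.46, 1.52 and 1.78 FPKM in VCD 1 to 4. It was highest in CON 1 and VCD 1 of their groups, and the libraries with the highest contractile gene values were CON 3 and VCD 4. Whether the level of Myocd bears on the contractile genes was not tested. Srf measured between 17.6 and 19.5 FPKM in CON and between 17.8 and 21.8 in VCD. Tead1, a transcription factor of the Hippo pathway, had the smallest p of the list, with 6.76 ± 0.854 FPKM in CON and 5.13 ± 0.607 in VCD (SD, n = 4 each), with a limma adjusted p of 0.155.

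In a bulk sample, more cells of a type and more RNA per cell cannot be told apart, so markers of neighbouring cells are given beside these values. All 10 pericyte genes were found, summing to between 173 and 206 FPKM in CON and between 164 and 197 in VCD, and VCD 4, at 170, was not high. The 11 endothelial genes found of 12 were all higher in mean in VCD, none at a limma adjusted p under 0.05 and 7 at an unadjusted p under 0.05, and summed to between 237 and 286 FPKM in CON and between 287 and 361 in VCD. Emcn, an endothelial sialomucin, had the smallest p among them (limma adjusted p = 0.0631). In 4 of the 11 all VCD libraries lay above all CON libraries, against 2.27% of all tested genes. In the authors' deposited table q was 6.8e-05 for Emcn, 0.0014 for Tie1, 0.016 for Flt1, 0.025 for Kdr and 0.028 for Esam. For the rest of the 11 it was above 0.05, and 4.58% of all genes there were under 0.05. Over all tested genes 36.5% were higher in VCD, and 4.12% were higher at an unadjusted p under 0.05. Stroma and fibroblast genes, 10 found of 11, summed to between 797 and 1162 FPKM in CON and between 576 and 918 in VCD, with VCD 4 at 612. Of these 10 stroma genes 9 were lower in VCD, none at a limma adjusted p under 0.05 and 3 at an unadjusted p under 0.05, where 14.6% of all tested genes were lower at that p. The part of these cell types in the smooth muscle values was not tested.

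**Figure D4:**
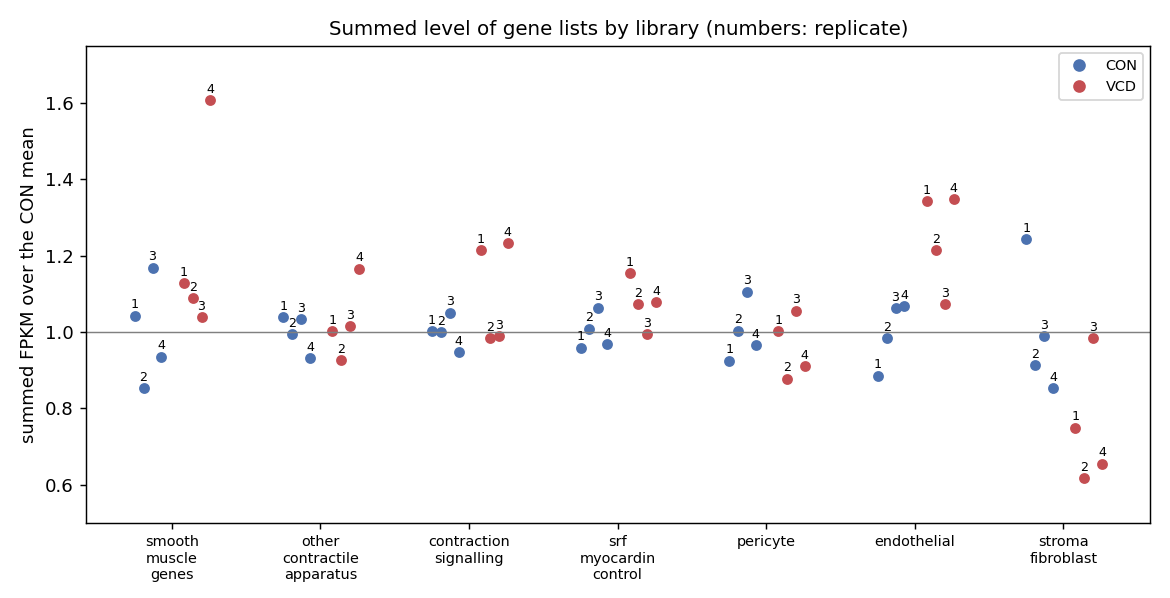
Summed FPKM of the smooth muscle genes and 6 other lists in each library, divided by the mean of the 4 CON sums (y axis, linear, not from 0), with CON in blue, VCD in red and the replicate number above each point. For the smooth muscle genes VCD 4 stands at 1.61 and the other VCD libraries between 1.04 and 1.13, while for endothelial genes VCD 1 (1.34) and VCD 4 (1.35) are both high.

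Markers of other muscle and of attached reproductive tract were set beside the smooth muscle genes library by library. The 9 skeletal muscle genes found of 12 summed to between 3.88 and 5.96 FPKM in CON and between 4.91 and 11.6 in VCD, and 6 of the 9 stayed under 1 FPKM in every library. Ckm, muscle creatine kinase, held most of the excess, at 8.52 FPKM in VCD 1 and 5.86 in VCD 4. Heart genes, 7 found of 8, summed to between 23.9 and 47.4 FPKM in CON and between 21.6 and 41.6 in VCD. Tnnt2, the troponin T of heart muscle, was the most abundant of them on average, at 17.5, 15.0, 21.5 and 15.9 FPKM in CON 1 to 4 and 13.4, 16.7, 14.7 and 19.1 FPKM in VCD 1 to 4. CON 3 and VCD 4 were the highest libraries of their groups for Tnnt2 too, at levels near those of Cnn1 in CON. Among the 5 heart genes tested, this held for Tnnt2 only. The heart gene with the smallest p was Tnni3, which was highest in CON 1 (6.83 FPKM) and VCD 2 (5.73 FPKM) of their groups. It stood at 2.69 FPKM in VCD 4, and its log2 change was -0.70 ± 0.19 SE (limma adjusted p = 0.116). The atrial hormone gene Nppa was listed at 10.6 FPKM in CON 3, 5.98 in VCD 2 and 2.05 in VCD 3, and at 0 in VCD 4. Epithelial genes of oviduct and uterus, 6 found of 10, summed to 20.6, 36.0, 12.6 and 7.44 FPKM in CON 1 to 4 and to between 9.38 (VCD 3) and 15.4 (VCD 4) FPKM in VCD. VCD 4 was the highest VCD library for this sum, as for the smooth muscle genes, and CON 3 was the second lowest CON library. Krt19, a keratin of simple epithelia, gave the largest share, with 18.0 FPKM in CON 2 and 11.2 in VCD 4. Hoxa11, a uterine gene, was listed at 0 in all libraries but VCD 2 (0.00825 FPKM).

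The labelled tissue was checked against ovarian cell types. Theca and steroidogenic genes, 6 found of 7, summed to between 4576 and 9472 FPKM in CON and between 7355 and 10045 in VCD. The 7 granulosa genes summed to between 728 and 953 FPKM in CON and between 665 and 1210 in VCD. Of these 7, 5 were higher and 2 lower in VCD, and only Amh was called. Amh averaged 59.5 FPKM in CON and 13.5 in VCD, with a log2 change of -2.19 (limma adjusted p = 0.0297). Each VCD library lay below each CON library for Amh, as in 9.58% of all tested genes. At an unadjusted limma p under 0.05 Fshr was also lower (log2 change -0.50) and Cyp19a1 higher (1.73). At that p 14.6% of all tested genes were lower and 4.12% higher. Oocyte genes, 10 of 10 symbols found, summed to between 37.0 and 57.6 FPKM in CON and between 7.42 and 12.3 in VCD, with both table entries of Dppa3 in the sum. All 10 oocyte genes tested were lower in VCD, and 8 of them at a limma adjusted p under 0.05. Of all 14978 tested genes 9512 were lower in VCD, and 0.447% had a limma adjusted p under 0.05 in either direction.

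Of the other tested genes that averaged 1 FPKM or more, the 5 whose log2 values followed the mean standardised profile of the smooth muscle genes most closely over the 8 libraries were Fosb, Edn2, Erf, LOC100911625 and Flna. They were chosen for that likeness, so it carries no test. Fosb, a subunit of the AP-1 transcription factor, had a Pearson r of 0.95 and a Spearman rho of 0.88, and an r of 0.84 without CON 3 and VCD 4. It measured 1.02, 1.07, 9.16 and 0.651 FPKM in CON 1 to 4 and 8.54, 2.87, 1.82 and 20.2 FPKM in VCD 1 to 4. Edn2 encodes endothelin 2, a peptide that makes smooth muscle contract and is known in the ovary around ovulation. Its values were 0.615, 0.0645, 5.71 and 0 FPKM in CON 1 to 4 and 2.80, 0.189, 0.0843 and 11.6 FPKM in VCD 1 to 4 (r = 0.95, rho = 0.95, and r = 0.80 without CON 3 and VCD 4).

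Both peaked in CON 3 and VCD 4. Erf, an ETS-family repressor, ranged narrowly, from 8.98 to 10.1 FPKM in CON and from 9.39 to 12.0 in VCD (r = 0.95, rho = 0.98, and r = 0.97 without CON 3 and VCD 4). Flna, the actin crosslinker filamin A and a member of the other contractile list, measured 89.5, 81.9, 95.1 and 84.2 FPKM in CON 1 to 4 and 94.5, 87.6, 87.6 and 118 FPKM in VCD 1 to 4 (r = 0.95, rho = 0.93, and r = 0.96 without CON 3 and VCD 4). LOC100911625 had an r of 0.95 and a rho of 0.90. None of these 5 genes was called between VCD and CON, their limma adjusted p values lying between 0.386 and 0.737. Their log2 changes ran from 0.10 (Erf) to 1.24 (Fosb).

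The m6A lists ask where methylated fragments were enriched on these transcripts. A peak is a stretch where fragments pulled down by the antibody outnumber input fragments, and its log2 enrichment, peak calls and p-values are the authors' own. One list was deposited per group, so no value per rat exists for peaks. Starts in these lists were counted from 0, as 5271 CON peaks began 1 base before their gene's start and 0 began on it, and positions are given here counted from 1. The files name no build. Spans include introns, since the blocks within a peak were not listed.

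The CON list held 16 peaks on 9 of the 10 genes, out of 22316 peaks, and the VCD list 15 peaks on the same 9 genes, out of 21528. Actg2 had no peak in either list. Among protein-coding genes with a CON mean between 5.50 and 249 FPKM, the range of the 10 genes, 85.0% had a CON peak and 84.7% a VCD peak. In CON 5 of the 16 peaks were annotated to the stop codon, 4 to the 3′ UTR, 4 to the start codon and 3 to internal exons. Stop codon and 3′ UTR peaks made up 56.2% of these 16, against 52.7% of all CON peaks.

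Lmod1 had the strongest enrichment of the 10 genes. Its single peak, annotated to the stop codon and spanning chromosome 13, 52147555 to 52188627, had a log2 enrichment of 4.15 in CON and 4.29 in VCD, above 93.2% and 94.1% of the peaks in those lists. Synpo2 followed, with a CON peak that spanned nearly the whole gene at 3.57 and that was split in VCD into a stop codon peak at 3.36 and a start codon peak at 3.83. Mylk had an internal exon peak at 3.02 in CON and 3.11 in VCD, and a stop codon peak at 2.70 in both groups.

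Des carried 1 peak of 325 bases in its 3′ UTR (chromosome 9, 82563969 to 82564293), with a log2 enrichment of 2.92 in CON and 3.07 in VCD. Myh11 had a stop codon peak at 2.79 in CON and 2.92 in VCD and a start codon peak at 1.79 and 1.82. Smtn had 4 CON peaks and 3 VCD peaks, between 1.96 and 2.35, with 2 adjoining exon peaks of CON joined in VCD. The lowest enrichments were on Cnn1 (1.37 and 1.52 in CON, 1.74 in VCD), Acta2 and Tagln. Acta2 had a start codon peak at 2.07 in CON and 2.22 in VCD and a stop codon peak at 1.55 and 1.59. The 3′ UTR peak of Tagln, 375 bases long, stood at 1.61 in CON and 1.65 in VCD, above 17.4% and 14.0% of the listed peaks.

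**Figure D5:**
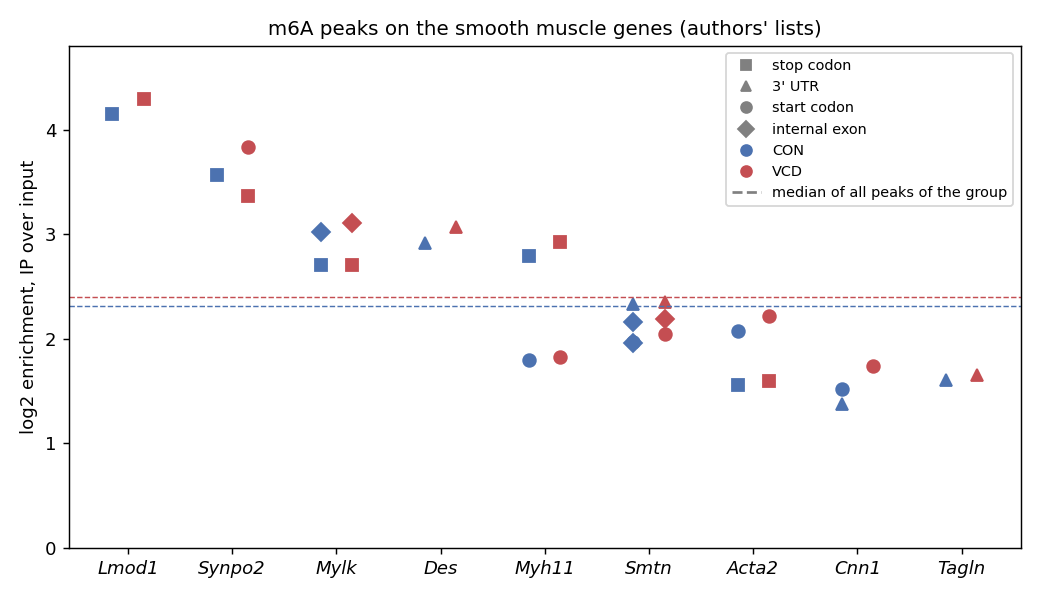
Log2 enrichment of IP over input (y axis, from 0) of every peak on the 9 genes that had one, CON in blue and VCD in red, with the shape giving the annotation and dashed lines the median of all peaks of each list (2.31 in CON, 2.40 in VCD). Lmod1 peaks lie above 4, Acta2, Cnn1 and Tagln peaks lie below the medians, and the groups lie close together within each gene.

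Of the 16 CON peaks 15 overlapped a VCD peak by at least 1 base on the same strand, and of the 15 VCD peaks 15 overlapped a CON peak. Over all genes 88.0% of CON peaks and 91.7% of VCD peaks did so. The CON peak without a partner lay in the 3′ UTR of Cnn1 (chromosome 8, 23121537 to 23121761), with a log2 enrichment of 1.37, the lowest of the 16. For 8 peaks on Acta2, Tagln, Des, Myh11, Mylk, Lmod1 and Smtn the coordinates were identical in both lists. Their enrichment was higher in VCD in 8 of 8, by a median of 0.08 on the log2 scale, against 71.2% of all 6028 peaks with identical coordinates and a median of 0.07.

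In the authors' deposited table of differential peaks, which held only peaks with a p-value under 0.05 or none, 7 peaks lay on 7 of the genes. All 7 were higher in VCD in the authors' deposited table, as were 82.8% of the 5533 peaks in it. The differences ran from 0.05 (Tagln, 3′ UTR) to 0.21 (Synpo2, start codon) on the log2 scale in the authors' deposited table, where the median over all its peaks was 0.19. The stop codon peak of Myh11 had the smallest p of the 7, with 2.77 in CON and 2.90 in VCD (adjusted p = 2.9e-16 in the authors' deposited table). Without values per rat, whether the p-values of these peaks reflect the spread between rats is not known. At an adjusted p under 0.05, 5 of the 7 passed, those of Acta2, Synpo2, Myh11, Mylk and Lmod1, against 49.8% of the peaks in the authors' deposited table. None of the 7 reached a log2 difference of 1, the size at which 7.79% of peaks were marked as significant in the authors' deposited table. For Tagln and Des, which did not pass, the adjusted p was 0.142 and 0.0741 in the authors' deposited table.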

How the data were processed

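Ovary RNA of 8 rats gave 16 libraries, an input and an m6A immunoprecipitation library per rat. FPKM per gene and input library, a fold ratio of group means, its log2 value, p-values and q-values were deposited by the authors, per the file headers. Per the submitters' processing notes, the tools were HISAT2 2.0.4, fastp 0.19.4, edgeR 4.1, StringTie 2.1.2 and HOMER 4.10, with no role or order, and the build named there is the human GRCh38, although the gene identifiers are rat. The peak caller, its settings and the test behind the authors' p-values are not given in the sources used here. Peak lists hold log2 enrichments and p-values made by the authors for each group as a whole, per the file headers.

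Genes averaging 0.5 FPKM or more entered limma 3.58.1 in R 4.3.3 (a trended eBayes after lmFit) as log2(FPKM + 1), with treatment as sole term. Benjamini-Hochberg adjustment covered all 14978 genes, with calls made below an adjusted p of 0.05. Log2 changes understate changes of low genes. Peaks were overlapped with bedtools 2.31.1, and other steps used Python 3.11.15. The limma script was tested on simulated data. Replicate numbers come from the library names and equal a batch label. After subtraction of the group means, the CON and VCD libraries that share a number had correlations of -0.01 (number 1), -0.09 (number 2), 0.0068 (number 3) and -0.07 (number 4), and the number entered 1 alternative as a block. Each replicate is titled as a rat of its own, and the limma p-values weigh differences against the spread between these rats. Which spread the authors' p-values for genes and peaks rest on is not known.

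Members and gene lists were chosen with earlier results of these data known. Named were all members, up to 3 genes of smallest p per list, the 5 genes most alike in profile and the member peaks. Tnnt2, Krt19, Nppa, Hoxa11, Dppa3, Kcnma1, Kcnmb1, Myocd and Srf were named after their values were seen. List genes that matched no symbol in the table, such as Pecam1, Mrtfb and Prkg1, were not analysed here. Alternatives were another pseudocount, filters, normalizations, a block, left-out libraries and stricter peak rules.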

Additional observations from a re-analysis of the deposited data

Results flagged for a closer look

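In 4 of the 20 groups of 4 libraries tested, 1 library stood far from the other 3, where chance flags about 1 in 20. The measure is the gap from the extreme library to its nearest neighbour as a share of the group's range, and it passed Dixon's 95% critical value. VCD 4 was the high library for Acta2 (0.907), Tagln (0.900) and Actg2 (0.874), at 284, 419 and 60.3 FPKM. CON 3 was the high library for Synpo2 (0.909), at 7.76 FPKM. The 10 genes vary together, so these are not 4 independent events.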

How the results depend on the processing

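None of the 10 smooth muscle genes was called by limma under any of the 18 alternatives, and their smallest limma adjusted p was 0.191 (Lmod1, scaled to a common median). The log2 change stayed above 0 in all 18 for Acta2, Myh11, Tagln, Actg2 and Lmod1. Without CON 2 and VCD 4 it was -0.0035 for Cnn1, -0.046 for Des, -0.0048 for Mylk, -0.038 for Smtn and -0.081 for Synpo2, leaving 5 of 10 above 0. Synpo2 stood at -0.0089 without VCD 2 and VCD 4, and between -0.065 and 0.17 with 1 library left out. The members' median ranged from 0.085 (without VCD 4) to 0.37 (without CON 3) with 1 library left out, and fell to 0.11 when VCD 2 and VCD 4 were left out and to 0.0078 when CON 2 and VCD 4 were. Without CON 3 and VCD 4, chosen after seeing the data, it was 0.19, with 10 of 10 above 0. The replicate block changed no other call among the 10 genes.

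The count of 67 changed genes was 31 with the replicate block, 3 at a mean of at least 5 FPKM, 7 when VCD 2 and VCD 4 were left out, and 3 when VCD 4 was left out with either CON 2 or CON 3. With 1 library left out it lay between 12 (without CON 1) and 115 (without VCD 3). The cause of these moves was not tested. Peaks on the genes numbered 16 and 15 under the stricter threshold too, and 14 in each list were shared at an overlap of 50% of both. FPKM give no read depth, so counting error is unknown.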
